A study of Mus musculus with 12 samples.

Results

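The 10 genes described here encode the MHC class I presentation machinery. H2-K1, H2-D1, H2-T23 and H2-Q7 encode class I heavy chains, B2m encodes the light chain, Tap1, Tap2, Tapbp and Erap1 encode proteins that supply and load the peptides, and Nlrc5 encodes a transcriptional activator of class I genes. They were taken by gene symbol and were 10 of the 54532 genes listed for each library. All 10 were among the 11550 genes tested, those whose FPKM averaged 1 or more. FPKM scales the reads of a gene to its length and to the size of the library, so levels of different genes can be set side by side. Fold changes are differences of group means of log2(FPKM + 1).

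The libraries come from activated primary CD8+ T cells of mice. Each culture received an siRNA by the Accell method. It was directed against Creb1 (siCreb1, labelled as a Creb1 knockdown) or was a non-targeting control (siNTC, labelled with the genotype WT). After that the medium held 20 μM trans-vaccenic acid (TVA), a dietary fatty acid, or its solvent DMSO for 24 h. The 4 groups are siNTC with DMSO, siNTC plus TVA, siCreb1 with DMSO and siCreb1 plus TVA, with 3 RNA-seq libraries each and between 16660234 and 24602484 recovered reads per library (median 20759165). The siRNA lowers the transcript for a limited time and leaves the gene intact. Nothing in the labels says that the 3 libraries of a group come from separate mice, so the p-values measure the spread between these libraries, which may be technical. The comparisons ask how TVA and Creb1 knockdown, alone and together, bear on transcripts of antigen presentation in a cell whose usual role is to read class I molecules on others.

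Nearly all nucleated cells, T cells included, carry class I molecules, in which a heavy chain pairs with β2-microglobulin and holds a short peptide. Peptides are cut by the proteasome, carried into the endoplasmic reticulum by the TAP1 and TAP2 transporter, trimmed by ERAP1 and loaded with the help of tapasin, the product of Tapbp. Transcription of the classical heavy chain genes runs through an NF-κB site, an interferon response element and a composite element that holds a site for factors of the CREB and ATF family and a Y box for NF-Y, and NLRC5 acts on the proteins assembled there.

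Promoter stretches of heavy chain genes and B2m are shown first because the knocked-down factor belongs to a family with a known site in them. RefSeq promoter windows of 300 bases (build GRCm38.p6) were at hand for 8 of the 10 genes, all except Tap2 and Nlrc5. The letters searched on both strands were GGGATTCC (kappaB core), GAANNGAAA (interferon response core), TGACG (CRE core), TGACGTCA (full CRE, which contains the CRE core on both strands) and CCAAT (Y box). Capitals mark every match of the kappaB core, interferon response core, CRE core and Y box, and a match on the other strand stands as its reverse complement. The stretches below run 5′ to 3′ on the gene's strand and lie at chr17:34000325-34000467 (minus strand) for H2-K1, chr17:35262914-35263055 (plus) for H2-D1, chr17:35439013-35439153 (plus) for H2-Q7, chr17:35424668-35424809 (plus) for its neighbour H2-Q6 and chr2:122147599-122147736 (plus) for B2m. Against the genes as listed with the FPKM values, the stretches of H2-Q7 and H2-Q6 lie upstream, those of H2-K1 and B2m reach 9 and 51 bases into the gene, and that of H2-D1 lies wholly inside it, 184 bases past its listed start.
H2-K1: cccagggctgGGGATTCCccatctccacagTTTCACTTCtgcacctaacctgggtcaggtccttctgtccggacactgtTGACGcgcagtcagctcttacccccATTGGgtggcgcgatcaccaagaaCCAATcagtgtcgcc
H2-D1: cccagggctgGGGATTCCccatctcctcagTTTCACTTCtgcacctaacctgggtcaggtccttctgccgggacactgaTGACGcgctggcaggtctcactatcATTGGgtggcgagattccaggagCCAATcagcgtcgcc
H2-Q7: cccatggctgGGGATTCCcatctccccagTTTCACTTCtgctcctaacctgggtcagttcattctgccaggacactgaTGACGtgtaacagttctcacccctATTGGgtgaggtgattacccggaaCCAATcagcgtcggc
H2-Q6: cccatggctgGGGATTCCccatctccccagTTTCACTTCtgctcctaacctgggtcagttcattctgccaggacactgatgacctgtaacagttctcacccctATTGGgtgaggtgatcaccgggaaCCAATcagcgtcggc
B2m: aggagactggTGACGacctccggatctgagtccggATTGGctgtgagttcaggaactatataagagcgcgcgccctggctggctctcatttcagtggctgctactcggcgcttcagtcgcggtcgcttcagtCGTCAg

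The kappaB core, interferon response core, CRE core and Y box followed one another in the same order in H2-K1, H2-D1 and H2-Q7. Of all 32851 promoter windows, 1.06% held the kappaB core, 7.52% the interferon response core, 20.8% the CRE core, 37.4% the Y box and 1.79% the full CRE. Only 5 windows of the 32851 held the first 4 motifs together, and these were 2 windows of H2-K1 with nearby starts, 1 each of H2-D1 and H2-Q7, and 1 of the predicted gene Gm41485. Of the 8 genes with a window, 5 held the CRE core (H2-K1, H2-D1, H2-Q7, B2m and Tap1), 7 held the Y box (all but Erap1) and 0 held the full CRE. Not all windows lie upstream of the listed gene. Those of Erap1, H2-D1 and Tapbp lie wholly inside it, that of Tapbp 3329 bases past its start, and the Y box of H2-T23 is inside it too. The window of H2-Q6 matched the kappaB core, the interferon response core and the Y box but not the CRE core. These matches describe letters in a window and were not tested as binding sites.

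Creb1 (chromosome 1, 64532645 to 64604548), the target of the knockdown, was at 10.98, 10.3 and 10.49 FPKM in the siNTC libraries and at 11.03, 11.97 and 12.4 FPKM with TVA. It was at 1.19, 1.29 and 1.77 FPKM in the siCreb1 libraries and at 1.81, 1.67 and 1.17 FPKM in siCreb1 plus TVA. All 6 siCreb1 libraries lay below all 6 siNTC libraries and their mean was 13.2% of the siNTC mean (exact permutation test, two-sided, n = 6 against 6, p = 0.00216, the smallest this design can give).

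The cells carried the transcripts of CD8+ T cells. All 8 markers on the CD8+ T cell list were expressed, led by Cd8b1 at 822 to 941 FPKM, Trac at 475 to 536 FPKM and Cd8a at 416 to 450.4 FPKM. The summed level of the 8 markers was 2763, 2779.7 and 2772 FPKM in siNTC, 2766, 2739 and 2736 FPKM in siNTC plus TVA, 2638, 2649 and 2644 FPKM in siCreb1, and 2623, 2627 and 2647 FPKM in siCreb1 plus TVA. In FPKM the 6 siCreb1 libraries were all lower in this sum than the 6 siNTC libraries, and as a share of recovered reads this held without TVA (0.57% to 0.574% in siNTC, 0.562% to 0.564% in siCreb1) but not with it (0.571% to 0.577% in siNTC plus TVA, 0.569% to 0.572% in siCreb1 plus TVA). As a share of summed FPKM the siNTC and siCreb1 libraries overlapped with either treatment. Without TVA, 7 of the 8 markers passed the test for the knockdown, with Cd8a and Gzmb higher and Cd8b1, Cd3d, Cd3g, Lck and Trac lower, where 6.52% of all tested genes were higher and 7.21% lower. The 5 lower calls were all lost on the TPM scale (adjusted p from 0.0551 to 0.644), Lck also without siCreb1 replicate 2 (adjusted p = 0.0572), and Trac without any one of 8 libraries, all but the 3 of siNTC plus TVA and siCreb1 replicate 3 (adjusted p from 0.0506 to 0.122). The Cd8a call was lost with only the libraries compared (adjusted p = 0.0631). With TVA, 4 of the 8 passed, Cd8a higher and Cd8b1, Cd3d and Trac lower (all tested genes 4.64% higher and 5.51% lower). These 3 lower calls were lost on the TPM scale (adjusted p from 0.141 to 0.623), Cd3d also without siNTC plus TVA replicate 3 or siCreb1 plus TVA replicate 2 or 3 (0.0511 to 0.057), and Trac without siNTC plus TVA replicate 1 or 2 or any one siCreb1 plus TVA library (0.0619 to 0.101). Limma-voom also called Cd3e higher with the knockdown with either treatment and did not call Trac.

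Markers of other cell types were low. The 5 markers of MHC class II antigen presenting cells summed to 23.2, 25.3 and 23.02 FPKM in siNTC, 21.9, 19.8 and 21.6 FPKM in siNTC plus TVA, 20.4, 19.0 and 20.54 FPKM in siCreb1, and 18.7, 19.2 and 19.8 FPKM in siCreb1 plus TVA. Cd74 was the most abundant of them (10.4 to 15.3 FPKM) and Ciita lay between 0.0693 and 0.195 FPKM. By limma 0 of the 4 tested markers passed in any comparison, 1 had an unadjusted p under 0.05 for the knockdown without TVA and 0 in the other comparisons, and limma-voom called 1 (Cd74, lower with the knockdown without TVA). This sum was highest in the siNTC libraries, as were H2-D1 and H2-T23 among the class I genes, and its part in their differences was not tested. The 5 myeloid markers summed to 7.19, 6.18 and 6.41 FPKM in siNTC, 6.39, 5.98 and 4.93 FPKM in siNTC plus TVA, 6.3, 6.63 and 4.95 FPKM in siCreb1, and 8.88, 7.73 and 8.01 FPKM in siCreb1 plus TVA. Lyz2 made up most of that sum and was called for the knockdown with TVA (log2 fold change 0.40, adjusted p = 0.0478 by limma). That call was lost without any one of 10 libraries, all but siNTC replicate 1 and siCreb1 replicate 3 (adjusted p from 0.0513 to 0.145). Cd14 and Adgre1 were each listed at 0 in 1 library, and the part of the myeloid markers in the class I differences was not tested. The 5 B cell markers summed to 9.48 to 14.2 FPKM, most of it Cd79b, with Ms4a1 at 0.294 FPKM or less and Pax5 at 0.0942 FPKM or less. The 3 CD4 T cell markers summed to 2.95 to 4.25 FPKM, led by Zbtb7b, and the 4 dendritic cell markers to 0.225 to 0.422 FPKM, led by Xcr1, with Siglech at 0 in 2 libraries. The 3 NK cell markers summed to 31.6 to 35.5 FPKM, most of it Eomes (27.1 to 30.6 FPKM), which CD8+ T cells express too. The 4 erythroid markers summed to 0 to 0.52 FPKM, led by Hba-a1, and Hbb-bs was at 0 in all 12 libraries. Of these lists 2 B cell, 2 CD4 T cell and 3 NK cell markers were tested, and neither limma nor limma-voom called any of them. An unadjusted p under 0.05 was found for at most 1 marker of each list in a comparison. In bulk RNA, fewer cells of a type and less RNA per cell cannot be told apart.

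Class I transcripts were among the most abundant of these cells. B2m ranked 4 by mean FPKM among the 22046 protein-coding genes listed, H2-K1 14, H2-D1 34, H2-Q7 136 and H2-T23 158. Tapbp ranked 234, Tap1 362, Nlrc5 471, Tap2 683 and Erap1 1582. Over the 12 libraries no neighbours in this order overlapped in their FPKM levels. The 10 genes together took between 1.42% and 1.5% of the recovered reads, and their summed level was 7319, 7449.7 and 7399 FPKM in siNTC, 7122, 7174 and 7122 FPKM in siNTC plus TVA, 7036, 7091 and 7136 FPKM in siCreb1, and 6915, 6891 and 6862 FPKM in siCreb1 plus TVA. B2m, H2-K1 and H2-D1, at 3278, 1831 and 1103 FPKM on average, made up most of this sum, so its order need not hold for the less abundant genes. In FPKM the siNTC libraries were the highest and the siCreb1 plus TVA libraries the lowest, and the 2 middle groups overlapped. This order depended on the scale. As a share of recovered reads siNTC (1.45% to 1.5%) overlapped siCreb1 (1.43% to 1.46%), and siCreb1 plus TVA (1.42% to 1.43%) overlapped siNTC plus TVA (1.43% to 1.44%). As a share of summed FPKM siNTC (2.04% to 2.09%) overlapped siCreb1 plus TVA (1.95% to 2.04%). Within groups the coefficient of variation of the 10 genes ran from 0.588% to 4.84% with a median of 1.57%, against a median of 5.35% over all tested genes.

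**Figure D1:**
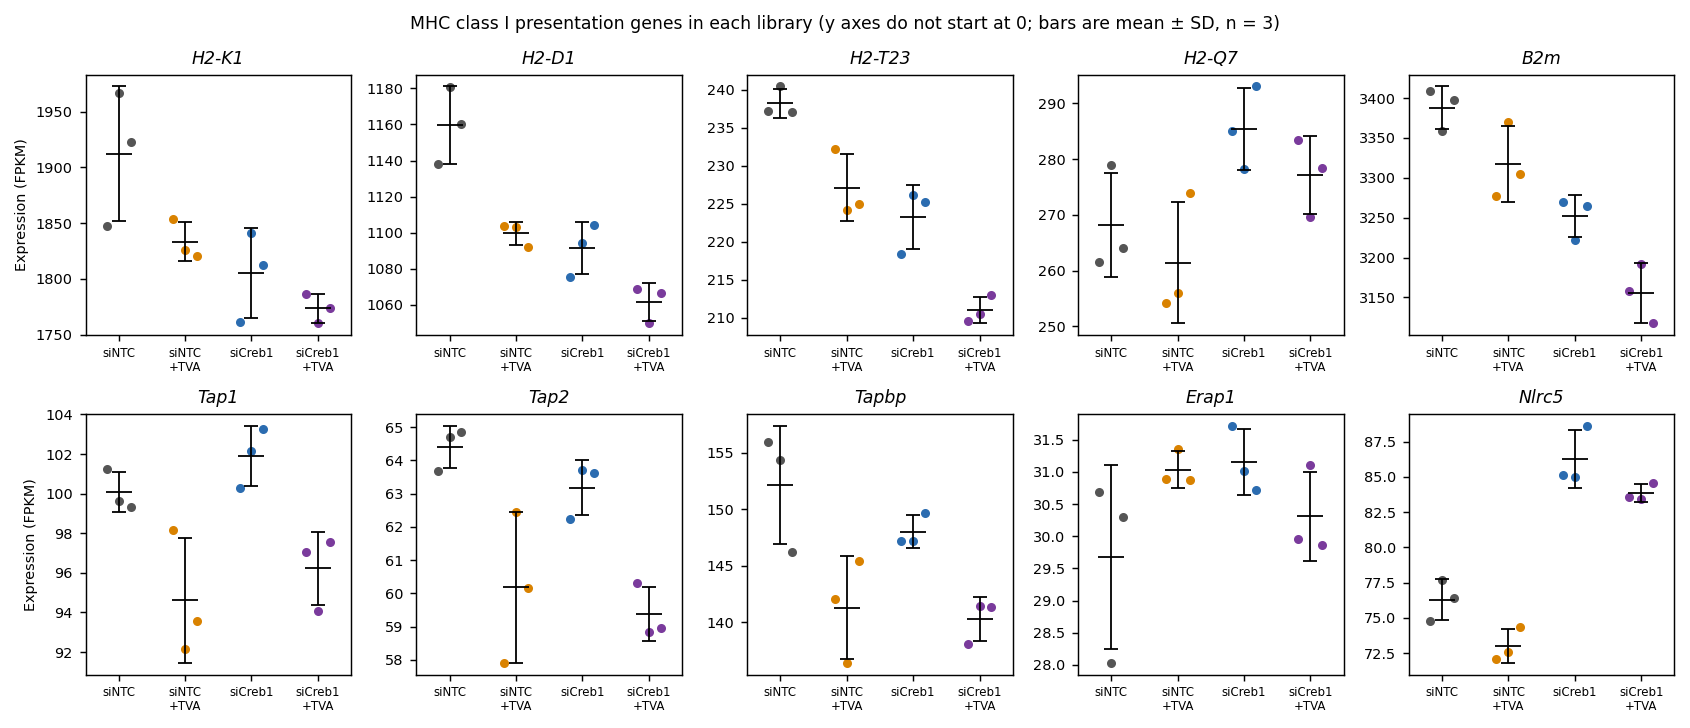
Expression in FPKM (y axis, not starting at 0) of the 10 genes in each library of the 4 groups (x axis). Points are libraries and bars the mean and SD (n = 3). Nlrc5 is higher in the 6 siCreb1 libraries than in the 6 siNTC libraries, and H2-T23 is lowest in siCreb1 plus TVA.

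H2-K1, a classical heavy chain gene (ENSMUSG00000061232, chromosome 17, 33996017 to 34000333), was at 1848, 1967 and 1922 FPKM in siNTC and at 1854, 1826 and 1821 FPKM in siNTC plus TVA. It was at 1762, 1841 and 1813 FPKM in siCreb1 and at 1786, 1759.98 and 1774 FPKM in siCreb1 plus TVA. The TVA libraries overlapped the DMSO libraries on either siRNA, whereas both siCreb1 groups lay below the siNTC group with the same treatment. The mean was 5.6% lower in siCreb1 than in siNTC (log2 fold change −0.08, adjusted p = 0.062 by limma), short of the threshold of 0.05. It passed without siNTC replicate 1 (adjusted p = 0.0186), the lowest siNTC library.

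H2-D1, the other classical heavy chain gene (ENSMUSG00000073411, chromosome 17, 35262730 to 35267499), was at 1138, 1181 and 1160.3 FPKM in siNTC and at 1104, 1103 and 1092 FPKM in siNTC plus TVA. It was at 1076, 1094 and 1104 FPKM in siCreb1 and at 1069, 1049.8 and 1067 FPKM in siCreb1 plus TVA. Every group lay below siNTC, and siCreb1 plus TVA lay below the other 3. H2-D1 fell with TVA in siNTC cells (log2 fold change −0.08, SE 0.02, adjusted p = 0.0463) and with the knockdown without TVA (−0.09, SE 0.02, adjusted p = 0.0175). The first call was lost without any one of 11 libraries, all but siNTC replicate 1 (adjusted p from 0.0563 to 0.139), and under 5 of the alternative settings (0.088 to 0.33). The second was lost without siCreb1 replicate 1 (adjusted p = 0.068) and under 4 settings (0.0593 to 0.463). In siCreb1 cells TVA gave −0.04 (adjusted p = 0.591), and the difference between the TVA effects was 0.04 with an interval of −0.03 to 0.10 (adjusted p = 0.62).

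H2-T23 encodes the heavy chain of Qa-1, a nonclassical class I molecule that NK cell and T cell receptors of the NKG2 family read (ENSMUSG00000067212, chromosome 17, 36029773 to 36032855). It was at 237, 240.5 and 237 FPKM in siNTC, 232, 224 and 225 FPKM in siNTC plus TVA, 218, 226 and 225 FPKM in siCreb1, and 209.6, 210.5 and 213 FPKM in siCreb1 plus TVA. The siNTC libraries were all above and the siCreb1 plus TVA libraries all below the rest, and the 2 middle groups overlapped. H2-T23 fell with the knockdown both without TVA (log2 fold change −0.09, SE 0.02, adjusted p = 0.0156) and with TVA (−0.11, SE 0.02, adjusted p = 0.0124). The call without TVA was lost without siCreb1 replicate 1 (adjusted p = 0.0603), and the call with TVA held without any single library. On the TPM scale neither call passed (adjusted p = 0.432 and 0.375), nor after quantile normalization (0.989 and 0.493), where the first fold change turned to 0.000818. The call without TVA was also lost with no mean-variance trend (0.0541) and with only the libraries compared (0.0752).

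H2-Q7 encodes a Qa-2 heavy chain (ENSMUSG00000060550, chromosome 17, 35439155 to 35443773) and had higher means in the siCreb1 groups. It was at 262, 279 and 264 FPKM in siNTC, 254, 256 and 274 FPKM in siNTC plus TVA, 285, 278 and 293 FPKM in siCreb1, and 283, 269.7 and 278 FPKM in siCreb1 plus TVA. The siCreb1 and siNTC libraries overlapped with either treatment, and neither difference passed the test (log2 fold change 0.09, adjusted p = 0.133 without TVA, and 0.08, adjusted p = 0.167 with TVA). Limma-voom on the recovered reads called both (adjusted p = 0.00549 and 0.0139), as did quantile normalization (0.14 and 0.15, adjusted p = 0.0135 for each).

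H2-Q7 and H2-Q6 are neighbouring and nearly identical genes, so the split of reads between them is uncertain where the authors' counting, which the sources used here do not describe, could assign a read to either. H2-Q6 (chromosome 17) was at 357, 375 and 368 FPKM in siNTC, 347, 352 and 337 FPKM in siNTC plus TVA, 306, 312 and 304 FPKM in siCreb1, and 294, 295 and 301 FPKM in siCreb1 plus TVA. All 6 siCreb1 libraries were below all 6 siNTC libraries, and H2-Q6 fell with the knockdown without TVA (log2 fold change −0.25, adjusted p = 0.00019) and with it (−0.22, adjusted p = 0.000977), calls that every left-out library and every alternative setting kept. The ratio of H2-Q7 to H2-Q6 was 0.734, 0.744 and 0.718 in siNTC, 0.733, 0.727 and 0.813 in siNTC plus TVA, 0.931, 0.892 and 0.963 in siCreb1, and 0.964, 0.914 and 0.925 in siCreb1 plus TVA. Their summed FPKM was 618, 654 and 632 FPKM in siNTC, 601, 608 and 611 FPKM in siNTC plus TVA, 591, 590.3 and 597 FPKM in siCreb1, and 577, 565 and 579 FPKM in siCreb1 plus TVA. The 4 groups did not overlap in this sum, which gives more weight to reads assigned to H2-Q6 (length 2085) than to H2-Q7 (length 4265). As a share of recovered reads the 2 genes together took 0.183% to 0.196% in siNTC, 0.181% to 0.188% in siNTC plus TVA, 0.185% to 0.189% in siCreb1 and 0.18% to 0.185% in siCreb1 plus TVA, and the groups overlapped. The ratio was above 0.813 in all 6 siCreb1 libraries and at most 0.813 in the 6 siNTC libraries. H2-K1 and H2-D1 share long stretches with each other and with H2-K2, and their values carry the same uncertainty.

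**Figure D2:**
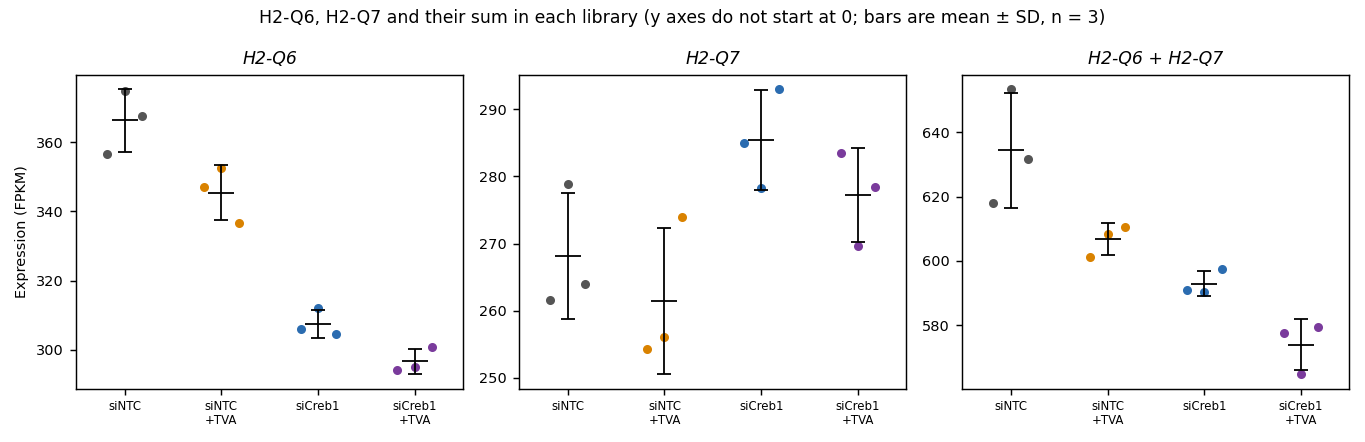
Expression in FPKM (y axis, not starting at 0) of H2-Q6, H2-Q7 and their sum in each library of the 4 groups (x axis). Points are libraries and bars the mean and SD (n = 3). H2-Q6 is lower in the 6 siCreb1 libraries (294 to 312 FPKM) than in the 6 siNTC libraries (337 to 375 FPKM).

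B2m, the light chain that every class I heavy chain pairs with (ENSMUSG00000060802, chromosome 2, 122147686 to 122153083), was at 3408, 3358 and 3398 FPKM in siNTC and at 3277, 3370.2 and 3305 FPKM in siNTC plus TVA. It was at 3269, 3222 and 3264 FPKM in siCreb1 and at 3158, 3192 and 3117 FPKM in siCreb1 plus TVA. TVA and DMSO libraries overlapped on siNTC, and each siCreb1 group lay below the siNTC group with the same treatment. B2m fell with the knockdown in the presence of TVA (log2 fold change −0.07, SE 0.02, adjusted p = 0.0492), a call lost without any one of 10 libraries, all but siNTC replicates 1 and 2 (adjusted p from 0.0593 to 0.156), and under 5 of the alternative settings (0.0669 to 0.76). Quantile normalization gave B2m the same mean in all 4 groups, so it does not test this gene. Without TVA the fold change was −0.06 (adjusted p = 0.0814).

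Tap1, a subunit of the peptide transporter (chromosome 17, 34187553 to 34197225), was at 101.2, 99.6 and 99.3 FPKM in siNTC, 98.2, 92.1 and 93.6 FPKM in siNTC plus TVA, 100.3, 102 and 103 FPKM in siCreb1, and 97.0, 94.1 and 97.5 FPKM in siCreb1 plus TVA. Tap2, the partner subunit (chromosome 17, 34203527 to 34216321), was at 63.7, 64.7 and 64.9 FPKM in siNTC, 57.9, 62.5 and 60.2 FPKM in siNTC plus TVA, 62.2, 63.7 and 63.6 FPKM in siCreb1, and 60.3, 58.8 and 59.0 FPKM in siCreb1 plus TVA. Tapbp (chromosome 17, 33915899 to 33929288) was at 156, 154 and 146 FPKM in siNTC, 142, 136 and 145 FPKM in siNTC plus TVA, 147, 147 and 149.7 FPKM in siCreb1, and 138, 141 and 141 FPKM in siCreb1 plus TVA. In each of these 3 genes the TVA libraries lay below the DMSO libraries on siNTC and again on siCreb1, with no overlap, while the siCreb1 and siNTC libraries overlapped. None of the differences passed the test in the main setting. In siNTC cells TVA gave −0.08 for Tap1 (adjusted p = 0.105), −0.10 for Tap2 (adjusted p = 0.0588) and −0.11 for Tapbp (adjusted p = 0.0577). With 1 library left out, Tap1 passed without siNTC plus TVA replicate 1 (adjusted p = 0.0342), Tap2 without siNTC plus TVA replicate 2 (adjusted p = 0.0248) and Tapbp without siNTC replicate 3 (adjusted p = 0.0219). Tap2 and Tapbp also passed at a mean FPKM of at least 5 (adjusted p = 0.0486 and 0.0464), and Tapbp by limma-voom (adjusted p = 0.0332). Under the knockdown with TVA, quantile normalization called Tap1 higher (0.11, adjusted p = 0.0235, against 0.02 in the main setting). Tap1 overlaps Psmb9 on the opposite strand, Tapbp overlaps Zbtb22 on the same strand, and Erap1 and Nlrc5 overlap Cast and the noncoding 9330175E14Rik on the opposite strand. The strand setting of the counting is not given in the sources used here, so reads in the shared stretches are uncertain.

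Erap1 trims peptides in the endoplasmic reticulum and was the least abundant of the 10 genes (ENSMUSG00000021583, chromosome 13, 74639568 to 74693201). It was at 30.7, 28.0 and 30.3 FPKM in siNTC, 30.9, 31.4 and 30.9 FPKM in siNTC plus TVA, 31.7, 31.0 and 30.7 FPKM in siCreb1, and 29.95, 31.1 and 29.9 FPKM in siCreb1 plus TVA. The lowest library was siNTC replicate 2, and the remaining 11 lay between 29.9 and 31.7 FPKM. No comparison passed the test, and the log2 fold changes between groups ran from −0.04 to 0.07.

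Nlrc5, the activator of class I genes (ENSMUSG00000074151, chromosome 8, 94434356 to 94527272), was at 74.8, 77.7 and 76.4 FPKM in siNTC and at 72.1, 72.6 and 74.4 FPKM in siNTC plus TVA. It was at 85.2, 85.0 and 88.6 FPKM in siCreb1 and at 83.6, 83.4 and 84.5 FPKM in siCreb1 plus TVA. All 6 siCreb1 libraries were above all 6 siNTC libraries, and within each siRNA the TVA libraries were below the DMSO libraries. Nlrc5 rose with the knockdown by 13.1% without TVA (log2 fold change 0.18, 95% interval 0.12 to 0.23, adjusted p = 0.00134) and by 14.9% with TVA (0.20, 0.14 to 0.25, adjusted p = 0.00126). Both calls held without any single library and under every alternative setting, with log2 fold changes from 0.16 to 0.25. The TVA differences did not pass (−0.06, adjusted p = 0.161 in siNTC cells, and −0.04, adjusted p = 0.659 in siCreb1 cells).

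**Figure D3:**
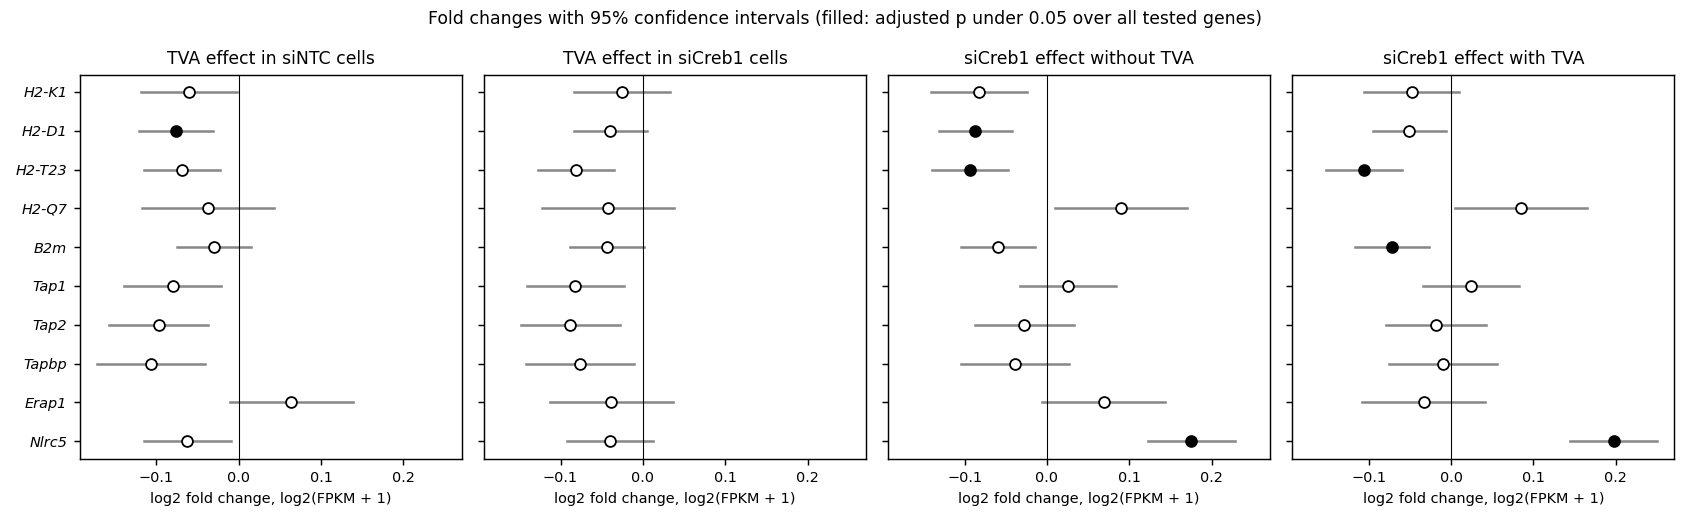
Log2 fold changes on the log2(FPKM + 1) scale (x axis) of the 10 genes (y axis) in the 4 comparisons between groups. Points are limma estimates, lines their 95% intervals, and filled points have an adjusted p under 0.05. In siNTC cells 9 of 10 estimates for TVA are below 0, against 52.3% of all tested genes. The largest estimates are those of Nlrc5 under the knockdown (0.18 and 0.20).

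With TVA in siNTC cells, 1 of the 10 genes fell (H2-D1) and 0 rose, where 2.88% of all tested genes fell and 4.49% rose. The estimates of 9 of 10 genes were below 0, against 52.3% of all tested genes. Their median log2 fold change was −0.07 against −0.01 over all tested genes. After quantile normalization 7 of 10 were below 0, with H2-K1 above 0 (0.0400) and B2m set at 0 by the method. The libraries did not overlap and were lower with TVA for 6 of the 10 genes, against 12.2% of all tested genes, and were higher for 1 of 10 (Erap1), against 11.7%. Such overlap shares, here and below, compare genes of unlike spread. The median coefficient of variation within groups was 1.57% for the 10 genes and 5.35% over all tested genes. The median was −0.06 after quantile normalization, −0.06 on the TPM scale and −0.05 by limma-voom, against −0.01, −0.01 and 0.01 over all tested genes. In all, 852 genes passed, 519 higher and 333 lower, and on the TPM scale 402 higher and 154 lower.

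With TVA in siCreb1 cells, 0 of the 10 genes passed by limma, 4 had an unadjusted p under 0.05 (Tap1, Tap2, Tapbp and H2-T23), and limma-voom called 0. By adjusted p only 0.416% of all tested genes fell and 0.121% rose here, 48 and 14 genes. All 10 estimates were below 0, against 50.8% of all tested genes, with a median of −0.04 against 0.00 over all tested genes. After quantile normalization H2-K1 and H2-D1 were above 0 (0.0431 and 0.0428) and B2m was set at 0 by the method. The median was then −0.03 against 0.00 over all tested genes. On the TPM scale all 10 stayed below 0. The libraries were lower with TVA and did not overlap for 7 of the 10 genes, against 9.01% of all tested genes, and 0 of 10 were higher, against 8.09%. Limma-voom gave 64 genes higher and 93 lower. The count of the 10 genes with an unadjusted p under 0.05 was 7 for TVA in siNTC cells. It was 6 and 5 for the knockdown without and with TVA. For counts at an unadjusted p, here and elsewhere, the share of all tested genes is not given.

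The difference between the TVA effects on siCreb1 and on siNTC was tested as an interaction. By limma 0 of the 10 genes passed, 0 had an unadjusted p under 0.05, and limma-voom called 0. Over all tested genes 0.459% had a higher and 1.78% a lower value of the interaction. The estimates of the 10 genes ran from −0.10 (Erap1) to 0.04 (H2-D1), and the smallest adjusted p was 0.37. After quantile normalization H2-D1 alone of the 10 was called, where 61 of all tested genes were higher and 182 lower.

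With the Creb1 knockdown without TVA, 2 of the 10 genes fell (H2-D1 and H2-T23) and 1 rose (Nlrc5), where 7.21% of all tested genes fell and 6.52% rose. The heavy chains H2-K1, H2-D1 and H2-T23 and the light chain B2m lay below siNTC with no overlap, 4 of the 10 genes against 16% of all tested genes. Nlrc5 and Erap1 lay above siNTC with no overlap, 2 of 10 against 15.5%. The median of the 10 genes was −0.03 against 0.00 over all tested genes, and the same medians were 0.01 against 0.04 on the TPM scale and 0.01 against −0.01 after quantile normalization. Limma-voom called 5 of the 10, adding H2-K1 (lower) and H2-Q7 (higher), quantile normalization called H2-D1, Nlrc5 and H2-Q7, and TPM left only Nlrc5. In all, 1586 genes passed, 753 higher and 833 lower. The split was 908 to 297 on the TPM scale, 748 to 637 after quantile normalization and 1178 to 805 by limma-voom.

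When the knockdown was compared in the presence of TVA, 2 of the 10 genes fell (B2m and H2-T23) and 1 rose (Nlrc5), where 5.51% of all tested genes fell and 4.64% rose. H2-K1, H2-D1, B2m and H2-T23 again lay below the siNTC plus TVA libraries with no overlap, 4 of 10 against 17.6%, and Nlrc5 above them, 1 of 10 against 14.3%. The median was −0.03 against −0.01 over all tested genes, and the same medians were 0.03 against 0.04 on the TPM scale and 0.04 against −0.01 after quantile normalization. Limma-voom added H2-Q7, quantile normalization called Nlrc5, H2-Q7 and Tap1 (all higher), and TPM left only Nlrc5. In all, 1172 genes passed, 536 higher and 636 lower. The split was 620 to 120 on the TPM scale, 595 to 335 after quantile normalization and 909 to 623 by limma-voom. The comparisons share groups with one another, so they are not independent of each other.

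The sum of FPKM over all genes differed between libraries. It was lowest in siCreb1 plus TVA replicate 1 (338614) and highest in siNTC plus TVA replicate 2 (373372). Gm23935, an RNA of 57 bases, alone took 34029 FPKM in the latter and between 12378.5 and 23926 FPKM in the other libraries, and TPM divides every gene by that sum. The median over all tested genes moved on that scale too, and unless a share is given, libraries are said to overlap or not in FPKM.

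**Figure D4:**
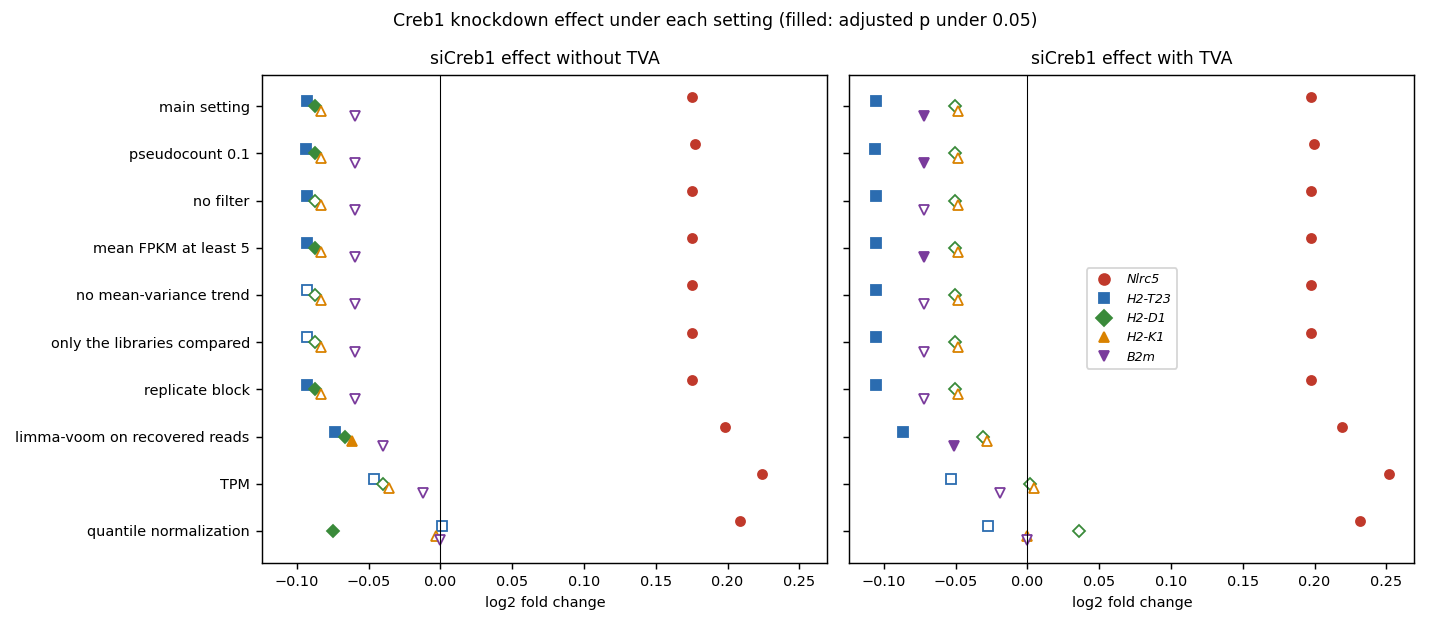
Log2 fold changes (x axis) of Nlrc5, H2-T23, H2-D1, H2-K1 and B2m for Creb1 knockdown without and with TVA under each setting (y axis). Filled points have an adjusted p under 0.05. Nlrc5 is filled throughout, while the heavy chains and B2m move towards 0 on the TPM scale. After quantile normalization H2-D1 with TVA turns to 0.04, and the 0 of B2m is set by the method.

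The other genes of the pathway were described from 6 lists with 67 genes, of which 60 were tested. For TVA in siNTC cells 3 were higher and 5 lower (of all tested genes 4.49% and 2.88%), for TVA in siCreb1 cells 0 and 2 (0.121% and 0.416%), for the knockdown 7 and 6 without TVA (6.52% and 7.21%) and 4 and 5 with TVA (4.64% and 5.51%), and for the interaction 0 and 1 (0.459% and 1.78%). The medians of the tested genes were −0.03, −0.03, 0.00, −0.01 and −0.02 in the same order of comparisons, against −0.01, 0.00, 0.00, −0.01 and 0.00 over all tested genes.

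The list of other heavy chains held 18 genes, of which 11 were tested, and H2-Q6 was the most abundant. Of the 11, 0 rose and 1 fell with TVA in siNTC cells (of all tested genes 4.49% and 2.88%). With the knockdown 2 rose and 2 fell without TVA (6.52% and 7.21%), and 1 rose and 1 fell with TVA (4.64% and 5.51%). Besides H2-Q6, 3 of these genes were called. H2-Q10 rose with the knockdown from 3.39 ± 0.328 to 4.96 ± 0.21 FPKM (SD, n = 3, log2 fold change 0.44, adjusted p = 0.00353) without TVA, and rose with TVA (0.31, adjusted p = 0.025), the latter call lost without siNTC plus TVA replicate 1 or 3 or siCreb1 plus TVA replicate 2 or 3 (adjusted p from 0.0665 to 0.0785). H2-Q4 rose with the knockdown without TVA (0.11, adjusted p = 0.0271), lost without siNTC replicate 1 or any one siCreb1 library (adjusted p from 0.0564 to 0.0834). H2-K2 fell with TVA in siNTC cells (−0.20, adjusted p = 0.0315) and with the knockdown without TVA (−0.19, adjusted p = 0.027), and both calls were lost without siNTC replicate 2 or 3, the first also without siNTC plus TVA replicate 2 or 3 and the second also without siCreb1 replicate 1 or 3 (adjusted p from 0.0662 to 0.112). Limma-voom also called H2-T24 higher with the knockdown without TVA and H2-Q4 higher with the knockdown in the presence of TVA, and it did not call H2-K2 for TVA in siNTC cells. These genes too share sequence with other heavy chains. Among the 6 lists, each call given as lost without a library was also lost under at least 1 alternative setting, except that of Irf9.

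Of 7 genes for peptide loading and folding in the endoplasmic reticulum, Pdia3, which encodes the tapasin partner ERp57 and was the most abundant, rose with TVA in siNTC cells (0.11, adjusted p = 0.0207) and fell with the knockdown in the presence of TVA (−0.09, adjusted p = 0.0406). Of all tested genes 4.49% rose in the first of these comparisons and 5.51% fell in the second. The first call was lost without siNTC replicate 2 or 3 or any one siNTC plus TVA library (adjusted p from 0.0542 to 0.0708), and the second without any one of 9 libraries, all but siNTC replicates 1 and 2 and siCreb1 replicate 1 (adjusted p from 0.0527 to 0.136). None of the 10 proteasome genes, led in level by Psme1 at 189 FPKM on average, passed in any comparison by limma. At most 7.21% of all tested genes passed in 1 direction of a comparison. Unadjusted p was under 0.05 for 1, 2, 1, 4 and 0 of the 10 in the order of comparisons above, and limma-voom called 1 (Psmb8, lower with the knockdown in the presence of TVA). Of 7 cytosolic and endosomal peptidases, led by Lnpep at 35.5 FPKM, Blmh fell with the knockdown in the presence of TVA (−0.21, adjusted p = 0.0163), lost without siCreb1 plus TVA replicate 1 or 2 (adjusted p = 0.0582 and 0.059). Here too 5.51% of all tested genes fell. Limma-voom also called Lnpep higher with the knockdown with either treatment, Calr higher with TVA in siCreb1 cells and Canx higher with the knockdown without TVA, and it did not call Pdia3 for the knockdown.

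Of 19 regulators of class I genes, 2 rose and 2 fell with TVA in siNTC cells (of all tested genes 4.49% and 2.88%). With TVA in siCreb1 cells 0 rose and 2 fell (0.121% and 0.416%). With the knockdown 5 rose and 2 fell without TVA (6.52% and 7.21%). In the presence of TVA 3 rose and 0 fell with the knockdown (4.64% and 5.51%). Not all of these calls are described below. Irf1, an interferon response factor that acts on heavy chain promoters, was the most abundant. It was at 80.3, 87.1 and 83.7 FPKM in siNTC, 76.9, 77.4 and 75.6 FPKM in siNTC plus TVA, 88.9, 90.8 and 91.1 FPKM in siCreb1, and 87.1, 85.3 and 89.9 FPKM in siCreb1 plus TVA. Its levels, like those of Nlrc5, were higher in siCreb1 than in siNTC with no overlap for either treatment. Irf1 rose with the knockdown with TVA (0.19, adjusted p = 0.00538), a call kept without any single library. The rise without TVA (0.11, adjusted p = 0.0402) was lost without any one of 9 libraries, all but siNTC replicate 2 and siCreb1 plus TVA replicates 2 and 3, and the fall with TVA in siNTC cells (−0.12, adjusted p = 0.0344) without any one of 8, all but siNTC replicate 1, siCreb1 replicate 1 and siCreb1 plus TVA replicates 2 and 3 (adjusted p from 0.0508 to 0.114 for both).

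Stat2, which encodes a partner of IRF9 in the type I interferon response, was at 16.1, 15.9 and 16.7 FPKM in siNTC, 13.5, 13.7 and 13.2 FPKM in siNTC plus TVA, 18.9, 17.9 and 18.4 FPKM in siCreb1, and 15.6, 16.6 and 15.9 FPKM in siCreb1 plus TVA. It was lower with TVA and higher with the knockdown, and only siNTC and siCreb1 plus TVA overlapped. Stat2 fell with TVA in siNTC cells (−0.25, adjusted p = 0.00115) and rose with the knockdown without TVA (0.17, adjusted p = 0.00869) and with TVA (0.24, adjusted p = 0.00304), and these 3 calls held without any single library. Its fall with TVA in siCreb1 cells (−0.18, adjusted p = 0.0454) was lost without any one of the 12 libraries (adjusted p from 0.0502 to 0.2). Irf9 rose with the knockdown in the presence of TVA (0.14, adjusted p = 0.0178), lost without siNTC plus TVA replicate 1 or 2 or siCreb1 plus TVA replicate 1 or 2 (adjusted p from 0.0555 to 0.0666).

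Subunits of factors that bind the class I promoters moved in different directions. Nfya, an NF-Y subunit, rose with TVA in siNTC cells (0.17, adjusted p = 0.0292), lost without siNTC replicate 2 or 3 or siNTC plus TVA replicate 1 or 2 (adjusted p from 0.0809 to 0.0984). Without TVA the knockdown raised Nfyb (0.16, adjusted p = 0.0393) and lowered Nfyc (−0.15, adjusted p = 0.0352) and Rela, the NF-κB p65 subunit (−0.14, adjusted p = 0.0293). The Nfyb call was lost without any one siNTC or siCreb1 library or siCreb1 plus TVA replicate 3 (adjusted p from 0.0523 to 0.121), the Nfyc call without siNTC replicate 2 or siCreb1 replicate 1 or 3 (0.102 to 0.115), and the Rela call without any one siNTC library or siCreb1 replicate 1 or 2 (0.0626 to 0.0745). Atf1 and Crem, the CREB family genes on the list, and the RFX subunit genes Rfx5, Rfxap and Rfxank did not pass by limma in any comparison, and limma-voom called Crem for the knockdown with either treatment and Rfx5, Irf2 and Irf8 without TVA, and did not call Nfyc.

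Ezh2, a histone methyltransferase known to silence class I genes in tumours, was at 12.7, 11.9 and 11.7 FPKM in siNTC, 16.99, 15.9 and 16.9 FPKM in siNTC plus TVA, 14.5, 14.9 and 14.7 FPKM in siCreb1, and 16.2, 16.1 and 16.5 FPKM in siCreb1 plus TVA. The siNTC libraries were the lowest, the siCreb1 libraries came next, and both TVA groups were above them. Ezh2 rose with TVA in siNTC cells (0.42, adjusted p = 5.7e-05) and with the knockdown without TVA (0.26, adjusted p = 0.00137). The TVA effect was smaller in siCreb1 cells by 0.29 on the log2 scale (interaction −0.29, adjusted p = 0.0147), a call lost on the TPM scale (adjusted p = 0.0899). Limma-voom also called Ezh2 higher with TVA in siCreb1 cells.

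Of 6 genes of the interferon gamma axis, 2 fell with TVA in siNTC cells and with the knockdown without and with TVA, and none rose. Of all tested genes 2.88%, 7.21% and 5.51% fell in these comparisons, and 4.49%, 6.52% and 4.64% rose. Ifngr1, the ligand-binding receptor chain and the most abundant of the 6, was at 224, 222 and 226 FPKM in siNTC, 196, 186 and 185 FPKM in siNTC plus TVA, 184, 180.01 and 181 FPKM in siCreb1, and 169, 174 and 168 FPKM in siCreb1 plus TVA. The siNTC libraries stood above all others and the siCreb1 plus TVA libraries below all others. Ifngr1 fell with TVA in siNTC cells (−0.24, adjusted p = 0.000185) and with the knockdown without TVA (−0.30, adjusted p = 8.58e-05) and with it (−0.15, adjusted p = 0.00573). The last call was lost on the TPM scale (adjusted p = 0.172) and after quantile normalization (adjusted p = 0.256).

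Socs1, a feedback inhibitor of interferon signalling, was at 66.2, 72.2 and 64.2 FPKM in siNTC, 56.4, 54.1 and 56.8 FPKM in siNTC plus TVA, 50.5, 48.4 and 51.8 FPKM in siCreb1, and 50.6, 50.2 and 48.8 FPKM in siCreb1 plus TVA. The siNTC libraries were highest and both siCreb1 groups overlapped at the bottom. Socs1 fell with TVA in siNTC cells (−0.27, adjusted p = 0.00296), with the knockdown without TVA (−0.42, adjusted p = 0.000236) and with it (−0.16, adjusted p = 0.0401). The last call was lost without any one siNTC plus TVA or siCreb1 plus TVA library or siCreb1 replicate 1 (adjusted p from 0.0559 to 0.115). For the interaction limma-voom called Ifngr1 and Socs1 (both higher), which limma did not. Ifng itself was near 1 FPKM (0.759 to 1.53 FPKM over the libraries) and did not pass in any comparison.

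**Figure D5:**
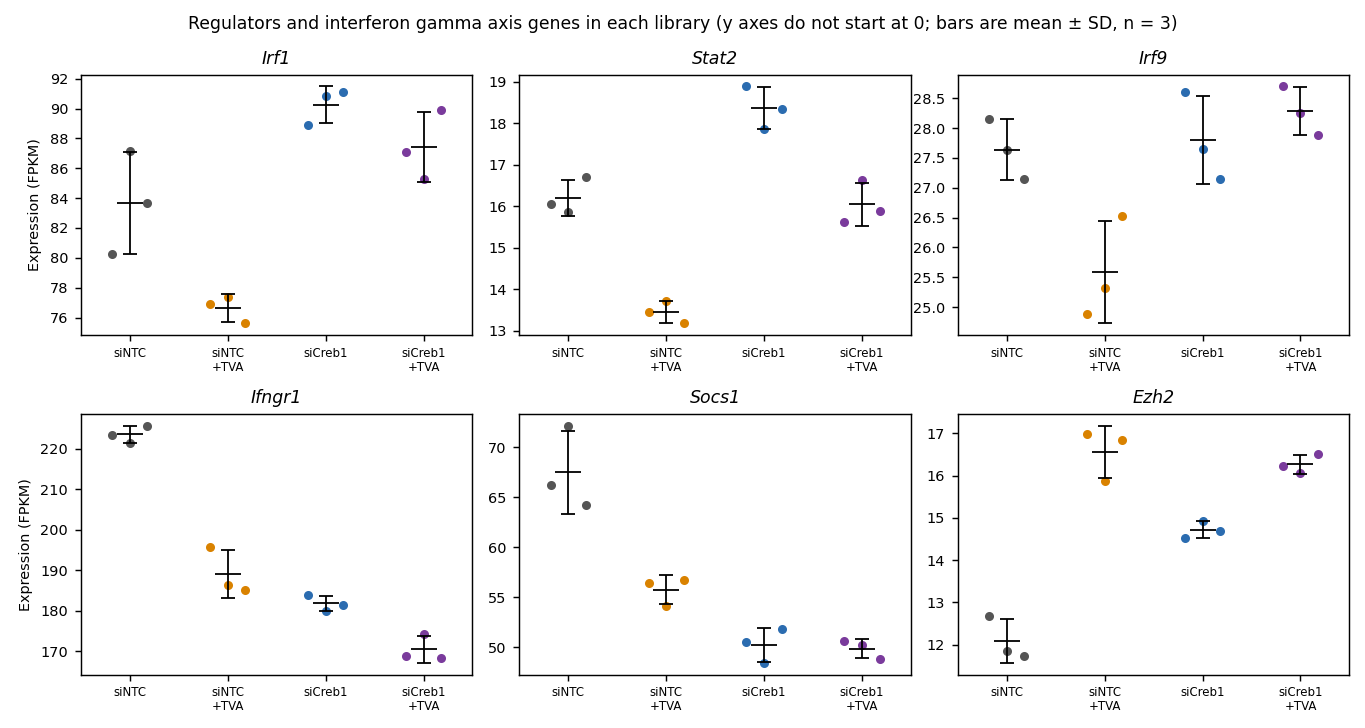
Expression in FPKM (y axis, not starting at 0) of Irf1, Stat2, Irf9, Ifngr1, Socs1 and Ezh2 in each library of the 4 groups (x axis). Points are libraries and bars the mean and SD (n = 3). Ifngr1 and Socs1 are highest in siNTC, and Irf1 and Stat2 are higher in siCreb1 than in siNTC with either treatment.

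The genes whose levels ran most like a class I gene over the 12 libraries were taken by Pearson's r of log2(FPKM + 1), as a description without a test, since the points share groups, library scaling and depth. For Nlrc5 they were Mycbp2 (r = 0.978), Ankhd1 (0.967), Zfc3h1 (0.962), Rnf213 (0.961) and Snhg17 (0.955). For B2m they were Camk2n1 (r = 0.955), Epsti1 (0.952), the pseudogene Gm6863 (0.948), Bmt2 (0.935) and Cox4i1 (0.929). For H2-K1 the highest 3 were Dedd2 (r = 0.948), Rpl18 (0.941) and Fau (0.938), of which Rpl18 and Fau belong to the ribosome. For Tap1 the highest 2 were Rundc3b (r = 0.952) and Slc39a13 (0.913).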

How the data were processed

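The 12 libraries were made from RNA of mouse primary CD8+ T cells with a SMARTER mRNA kit. The authors deposited FPKM values per gene for each library, made on build GRCm38 (mm10) according to the submitters' processing notes. The aligner, the counter, its strand setting and its treatment of reads that fit several genes are not given in the sources used here. Of the 10 class I genes, 8 have the same position in GENCODE M21.

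FPKM times gene length came in whole steps in each library, and at least 99.995% of the values above 0 gave whole reads within 0.01 of a read. Genes whose FPKM averaged 1 or more were tested as log2(FPKM + 1) with limma 3.58.1 in R 4.3.3 (with the package data.table, version 1.17.8), with 1 coefficient per group over all 12 libraries, a mean-variance trend and Benjamini-Hochberg adjustment over all 11550 tested genes at 0.05. No covariate was used. Tests were run on all genes and tried on simulated data, in which the changed genes had larger fold changes than the class I genes here. That trial does not show how well changes as small as theirs are called. Creb1 was tested by an exact permutation test. Python 3.11.15, numpy 2.4.6, pandas 2.3.3, scipy 1.17.1 and matplotlib 3.10.9 were used for the other steps.

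The alternatives were a pseudocount of 0.1, no filter, a mean FPKM of 5 or more, TPM computed from the FPKM values, quantile normalization, the replicate number as a block, limma-voom run on recovered reads, a prior without the mean-variance trend, only the libraries compared, and leaving out each library. Sums of genes were also taken as shares of recovered reads and of summed FPKM, which was chosen after the data were seen. The named genes were the 10 class I genes, Creb1, every gene of 6 pathway lists with an adjusted p under 0.05 in a comparison, the most abundant gene of each list, and the 5 genes most like H2-K1, B2m, Tap1 and Nlrc5. A few of these genes are not reported here. Other genes named (markers, genes without a call, Gm23935) were chosen after their values were seen or to describe a list. The class I genes and the lists were chosen with earlier results of these data known.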

Additional observations from a re-analysis of the deposited data

Results flagged for a closer look

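By limma's interaction test the effect of TVA differed between siCreb1 and siNTC cells for 259 of all 11550 tested genes, and of these only Ezh2 and Gzmb were on the pathway and marker lists. Limma-voom also called Ifngr1 and Socs1 of these lists (both higher). For Ezh2 the TVA effect was smaller in siCreb1 cells, with an interaction of −0.29 on the log2 scale (adjusted p = 0.0147), and the call was lost on the TPM scale (adjusted p = 0.0899). For Gzmb, the granzyme B gene, the interaction was −0.38 (adjusted p = 0.00254), and no left-out library and no alternative setting ended the call. Single libraries were not tested against the rest of their group.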

How the results depend on the processing

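Of 1530 values of single genes under the alternatives, 1289 kept their side of the threshold without a turn of sign (4 of these were at 0 after quantile normalization, B2m in 3 comparisons and H2-K1 in 1), 206 lost a call, 13 gained one and 22 changed sign, nearly all of them log2 fold changes close to 0. The cause was not tested. After quantile normalization the reversed values were 0.0400 for H2-K1 with TVA in siNTC cells, 0.0431 for H2-K1 and 0.0428 for H2-D1 with TVA in siCreb1 cells, 0.0131 for Tap2, 0.000663 for Tapbp and 0.000818 for H2-T23 with the knockdown without TVA, and 0.0361 for H2-D1, 0.0342 for Tap2, 0.0365 for Tapbp and 0.00189 for Erap1 with the knockdown with TVA. On the TPM scale they were 0.0193 for Tap2 and 0.00771 for Tapbp with the knockdown without TVA, and 0.00473 for H2-K1, 0.00219 for H2-D1, 0.0338 for Tap2, 0.0428 for Tapbp and 0.018 for Erap1 with TVA. For the knockdown with TVA, limma-voom gave 0.00212 for Tap2 and 0.00807 for Tapbp, Tap2 ran from −0.0453 to 0.00812 (without siNTC plus TVA replicate 2) with 1 library left out, and Tapbp from −0.0347 to 0.0112 (without siNTC plus TVA replicate 3), with 0.00153 without siCreb1 plus TVA replicate 1.

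For TVA in siNTC cells, 563 genes and 0 of the 10 class I genes passed with no filter. The same counts were 556 and 0 on the TPM scale and 375 and 0 with only the libraries compared. They were 724 and 0 with no mean-variance trend and 1013 and 2 by limma-voom. At a mean FPKM of at least 5, 812 of 7480 tested genes and 3 class I genes passed. For TVA in siCreb1 cells, 37 genes passed on the TPM scale, 157 by limma-voom and 39 with only the libraries compared. For the knockdown without TVA, 992 genes passed with no filter. Genes and class I genes that passed numbered 1205 and 1 on the TPM scale and 1470 and 1 with no mean-variance trend. They numbered 824 and 1 with only the libraries compared and 1983 and 5 by limma-voom. For the knockdown with TVA, 683 genes passed with no filter and 740 on the TPM scale, where 1 class I gene passed. The interaction gave 152 genes on the TPM scale, 446 by limma-voom, and 243 after quantile normalization, of which 1 was a class I gene. With only the libraries compared the interaction has no value. More genes to adjust over and fewer libraries are part of the construction of the settings with no filter and with only the libraries compared.

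Without 1 library, genes that passed numbered 556 to 767 for TVA in siNTC cells (class I genes 0 to 1), 30 to 67 for TVA in siCreb1 cells, 1022 to 1524 for the knockdown without TVA (class I genes 1 to 4), 598 to 1244 with TVA (2 to 3) and 168 to 237 for the interaction.

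With the replicate number as a block, 687, 34, 1385, 973 and 195 genes passed in the order above, and 0, 0, 3, 2 and 0 class I genes. After group means were subtracted, libraries with the same number had correlations of −0.0593 to 0.0595 over 18 pairs (mean −0.0105). A library was most like the one with its own number in 9 of 36 comparisons with another group, each of 3 libraries. No pairing by number was seen, but this check could miss a small shared effect.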

Other observations

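Gzmb, which encodes a protease of cytotoxic granules, was at 74.1, 71.7 and 71.4 FPKM in siNTC, 87.2, 94.1 and 88.3 FPKM in siNTC plus TVA, 95.03, 101.1 and 97.4 FPKM in siCreb1, and 91.4, 94.1 and 93.0 FPKM in siCreb1 plus TVA. The siNTC libraries were below all others. Gzmb rose with TVA in siNTC cells (log2 fold change 0.31, adjusted p = 0.000247 by limma) and with the knockdown without TVA (0.43, adjusted p = 5.14e-05). Cd8a and Cd8b1, which encode the chains of the CD8 coreceptor, had opposite signs under the knockdown without TVA, with log2 fold changes of 0.09 (adjusted p = 0.00397) and −0.16 (adjusted p = 0.000665). The call of Cd8b1 was lost on the TPM scale (adjusted p = 0.0551) and that of Cd8a with only the libraries compared (adjusted p = 0.0631).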
